A study of Mus musculus with 30 samples.

Results

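The comparison described here is lincRNA-Cox2 mutant lung against wild type lung after lipopolysaccharide (LPS), taken over every entry of the lung table: 3 libraries labelled mutant and 3 labelled wild type, of 30 libraries in the series. Of 19470 readable entries, 16774 had an adjusted p for it in the authors' deposited table. All mice were 8 weeks old and of the C57BL/6 strain. Both groups received LPS at 20 mg/kg into the peritoneum, and lungs were taken at 6 h for sequencing of messenger RNA. Beside them stood 2 wild type and 2 mutant lungs labelled PBS, and a line labelled lincRNA-Cox2 knockout with 3 LPS lungs and 2 PBS lungs. The labels do not say how either line was made, whether the wild type mice were littermates, or whether each library was a separate animal, so the spread between libraries may in part be technical.

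LincRNA-Cox2 is a long noncoding RNA of innate immune cells whose gene lies close to Ptgs2, the gene of cyclooxygenase 2. Macrophages induce both when LPS engages Toll-like receptor 4 and activates NF-kB. Noncoding RNAs of this kind can act on a neighbouring gene from the locus itself, or on distant genes through the transcript, and comparing 2 lines that lack the RNA is a way to ask which of these applies. Both genes are on chromosome 1 of mm10. Ptgs2 runs on the plus strand from 150100031 to 150108227, and lincRNA-Cox2, annotated as a lincRNA under the name Ptgs2os2, runs on the minus strand from 150159043 to 150164948.

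The bases just upstream of the 2 starts are shown because both lines are named for lincRNA-Cox2. Both are 250 bases from RefSeq (GRCm38.p6), written 5′ to 3′ on the strand of the gene, chr1:150164949-150165198 for lincRNA-Cox2 and chr1:150099781-150100030 for Ptgs2. Capitals mark GGG and CC with any 5 bases between them, a loose form of the site bound by NF-kB, searched on both strands.
lincRNA-Cox2: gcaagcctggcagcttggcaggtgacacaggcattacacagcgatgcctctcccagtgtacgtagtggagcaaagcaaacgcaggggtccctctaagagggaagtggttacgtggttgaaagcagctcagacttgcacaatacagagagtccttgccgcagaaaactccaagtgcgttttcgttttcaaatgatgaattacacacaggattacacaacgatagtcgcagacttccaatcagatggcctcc
Ptgs2: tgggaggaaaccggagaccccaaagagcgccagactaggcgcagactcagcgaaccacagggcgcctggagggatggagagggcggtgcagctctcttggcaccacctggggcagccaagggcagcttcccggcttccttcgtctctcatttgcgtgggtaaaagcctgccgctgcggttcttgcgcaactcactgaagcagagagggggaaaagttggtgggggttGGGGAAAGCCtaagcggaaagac
The motif occurred 1 time before Ptgs2, beginning 23 bases upstream of the start, and these letters were not found in the lincRNA-Cox2 window. It is common: 15046 of 32851 RefSeq promoter windows of this length, 45.8%, hold it.

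Values are group means, made by the authors from counts divided by library size factors, called normalized counts below, with the log2 fold and adjusted p of the authors' deposited table. A positive fold is higher in the mutant. The table has no column for single libraries, but about 185 entries carry means with 6 decimals, and some of these means can be split into whole reads per library in only 1 way. Library values below come from such means. The libraries of a group carry no label in this form. The size factors were 1.30, 1.02 and 0.817 for wild type with LPS and 1.01, 0.872 and 0.818 for mutant with LPS, which puts the libraries at an estimated 8.17 to 13.0 M and 8.62 to 10.7 M reads. Lung markers were abundant in both groups: the surfactant gene Sftpc had authors' means of 35400 in wild type and 40200 in mutant, and Scgb1a1 of club cells had 24200 and 30000.

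The 2 LPS groups also differed in sex-linked transcripts, and this bears on every value that follows. Xist, the RNA that coats the inactive X in females, had an authors' mean of 14.5 in wild type with LPS and 4510 in mutant with LPS. The Y-linked genes showed the reverse: Ddx3y, a male RNA helicase, had authors' means of 1150 and 4.73 in its larger entry, Eif2s3y 445 and 2.26, Kdm5d 218 and 1.37, and Uty 151 and 0.329. With PBS, both genotypes carried both kinds of transcript, with Xist at 3660 and 3300 and Ddx3y at 294 and 317, and in the LPS knockout Xist was 23.2. The library labels give no sex. Mutant and wild type under LPS therefore differ in sex-linked RNA as well as in genotype, and the 2 cannot be told apart in this contrast. The same holds for mutant against knockout under LPS, where Ddx3y was 1130 in the knockout. The authors' deposited table called none of these genes, with an adjusted p of 0.92 for Xist and 0.901 for Ddx3y.

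**Figure D1:**
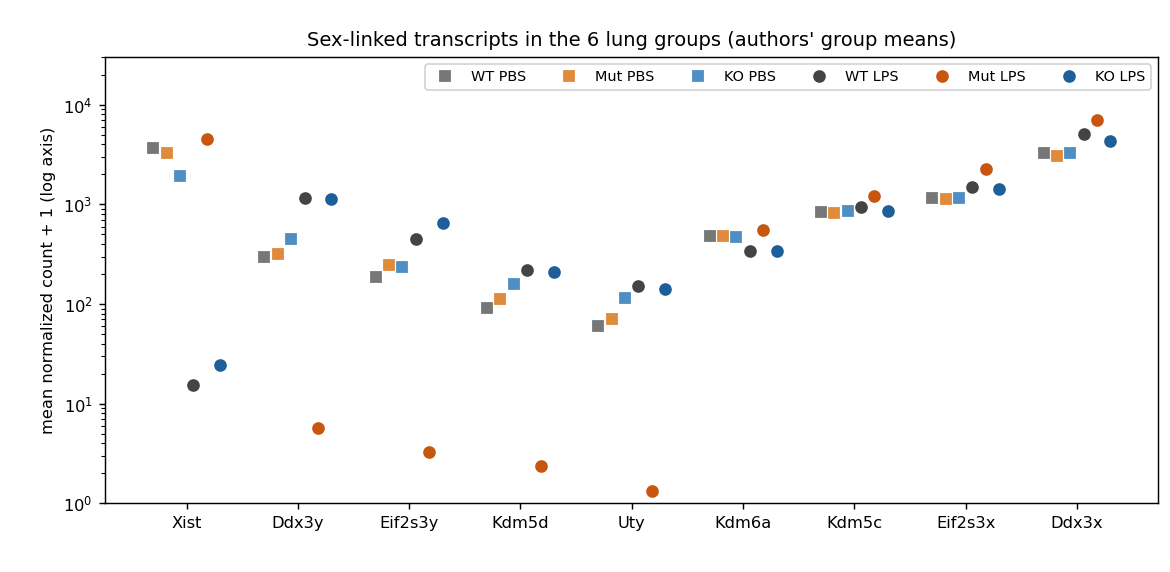
Authors' mean normalized count plus 1 (log axis) of 9 sex-linked genes in the 6 lung groups, squares for PBS and circles for LPS, Ddx3y by its larger entry. In mutant lung with LPS, Xist stands at 4510 and the Y-linked genes at 4.73 or less, while wild type with LPS has Xist at 14.5 and Ddx3y at 1150.

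The X chromosome as a whole did not follow. Its 533 tested entries and the 15498 autosomal ones both had a median of 0.01 (log2 fold, the authors' deposited table). Of 10 tested genes known to escape X inactivation or to control it, 9 lay above 0, with a median of 0.34. Among them the histone demethylase Kdm6a had authors' means of 336 and 556, Kdm5c 946 and 1210, the translation factor Eif2s3x 1510 and 2240, and Ddx3x 5050 and 7010. None of these genes was called.

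At an adjusted p under 0.05 in the authors' deposited table, 12 entries with 11 distinct symbols were called, 0.0715% of those tested. There were 7 higher in the mutant (0.0417%) and 5 lower (0.0298%). The authors' own mark, which ends at 0.1, adds 4 entries for a total of 16 (0.0954%). Called entries ended at an adjusted p of 0.0364, the 4 marked ones stood at 0.0995, and the next entries, among them Slc13a4, Fank1, Nrn1 and Sprr1a, at 0.113. Over all tested entries the median log2 fold was 0.01, with 52.0% above 0 and the central 95% of folds between -0.72 and 0.82. Setting both groups to equal sums moved the folds by -0.08 and left 41.0% above 0. With PBS the same genotype contrast, in 2 libraries against 2, called 1 of 19083 entries (0.00524%), lincRNA-Cox2 itself. Knockout against wild type with LPS, which shares the 3 wild type libraries, called 69 of 15656 (0.441%), and knockout against mutant 39 of 16030 (0.243%). By the ratio of means alone, with 1 added to each, 11776 entries reached a mean of 50 in one group or the other; the mutant was at least 2-fold higher in 73 of them (0.62%) and 2-fold lower or more in 36 (0.306%).

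Of the 12 called entries, 5 were also called in knockout against wild type: lincRNA-Cox2, Tmem181b-ps, Zbtb32, abParts and Eif4ebp3. Between knockout and mutant, 2 of the 12 were called, Slc25a37 and Ide.

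**Figure D2:**
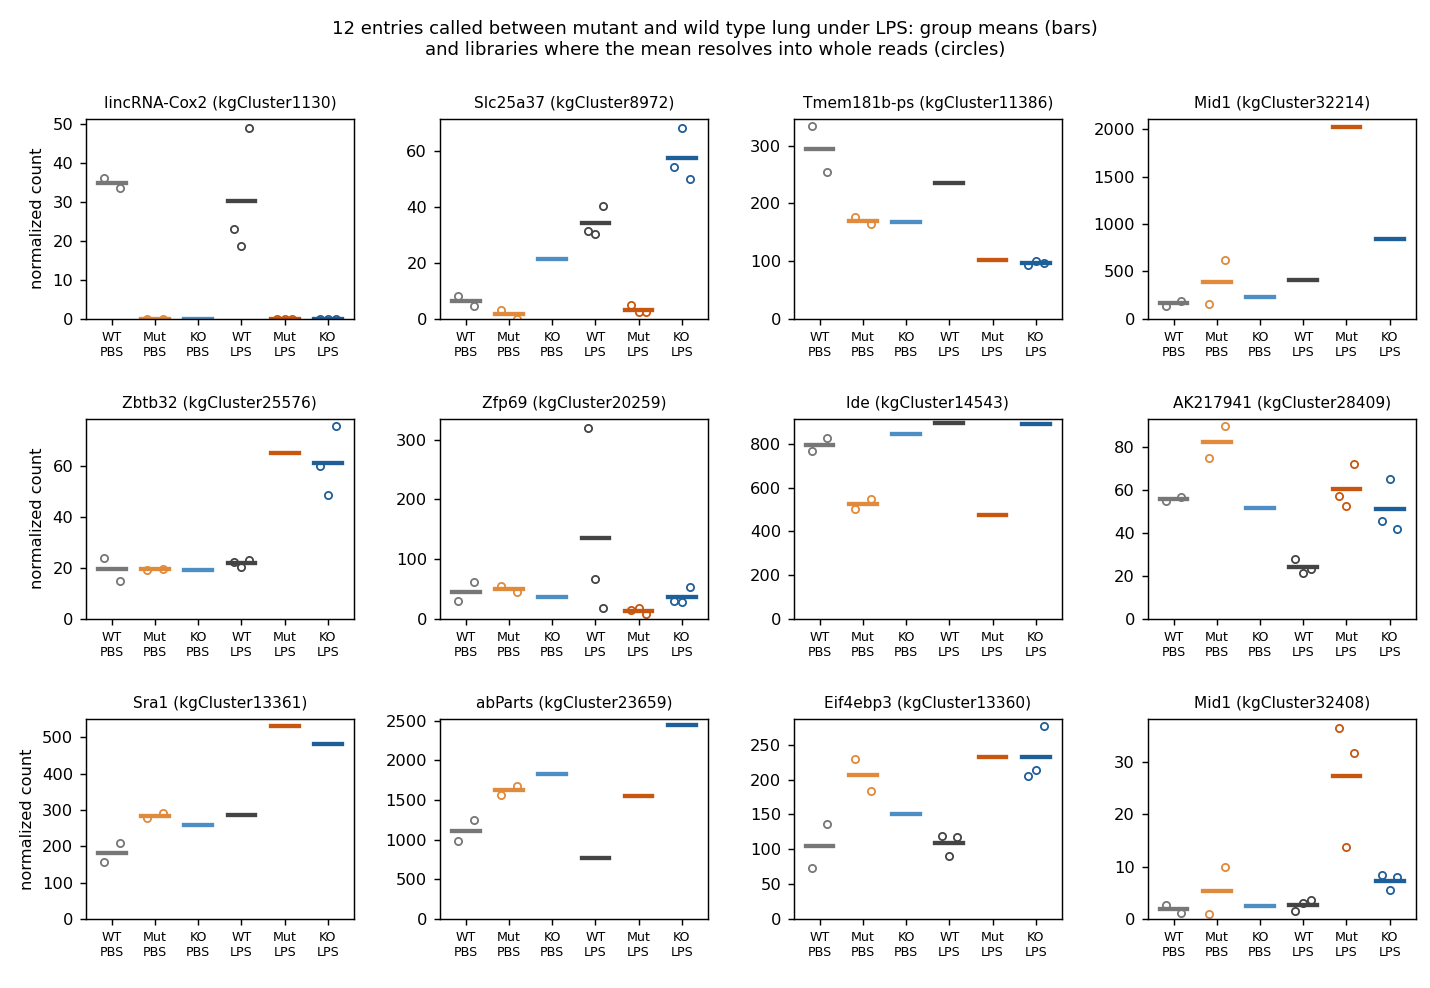
Normalized counts of the 12 called entries in the 6 lung groups: bars are authors' group means, circles are libraries where the mean splits into whole reads in 1 way. LincRNA-Cox2 is at 0 in every mutant and knockout group, Zbtb32 is near 20 with PBS in all genotypes and above 60 in both LPS lines, and 1 wild type LPS library of Zfp69 stands at 320.

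The RNA for which the line is named was not detected in mutant lung. LincRNA-Cox2 had 18.6, 23.0 and 49.0 normalized counts in the wild type LPS libraries, from 19, 30 and 40 reads, and no read in any mutant library with LPS. The wild type PBS libraries had 33.5 and 36.2, and both mutant PBS libraries had 0. Every wild type library was thus above every mutant one, and 1 wild type LPS library was over 2-fold above the others. The log2 fold was -4.77 (adjusted p 1.67e-06, from the authors' deposited table). Taking 3 reads over the group as the floor, for counting error only, the mutant was at least 24.7-fold lower with LPS and at least 23.5-fold lower with PBS.

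Ptgs2, which commits arachidonic acid to prostaglandin synthesis, was not called. Its authors' means with LPS were 1397 in wild type and 1058 in mutant, and with PBS 189 and 154. Libraries could be resolved with PBS, where wild type had 148 and 229 and mutant 121 and 187, so the groups overlapped. The LPS log2 fold was -0.39 (adjusted p 0.972, from the authors' deposited table). In knockout lung with LPS the libraries had 184, 203 and 238, all far below either mean, and the log2 fold against wild type was -2.70 (adjusted p 3.64e-31, from the authors' deposited table). Of the other tested entries within 500 kb of lincRNA-Cox2, none was called. Pla2g4a, the phospholipase that releases arachidonic acid, had authors' means of 275 and 249 with LPS. Prg4, which encodes the lubricant lubricin, had 114 and 453, and its log2 fold of 1.48 had an adjusted p of 0.972 from the authors' deposited table. Hmcn1, a matrix protein gene, had authors' means of 190 and 317.

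The wider prostanoid pathway showed no call either. Of 20 tested entries on the list for its synthesis, 9 lay above 0 and 11 below. That list also holds Lta4h, an enzyme of leukotrienes and not of prostanoids. Of 8 entries for prostanoid receptors, 4 lay on each side. Ptgs1, the constitutive cyclooxygenase, had authors' means of 695 and 899, the leukotriene A4 hydrolase Lta4h 414 and 319, and the prostacyclin receptor Ptgir 228 and 297. Of 15 genes earlier described as dependent on lincRNA-Cox2 in macrophages, 10 lay above 0 with a median log2 fold of 0.10, and none was called. Among these the chemokine Ccl5 had authors' means of 1670 and 2210, the ubiquitin-like Isg15 4120 and 5310, and the receptor Tlr1 147 and 109.

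Zbtb32, a BTB zinc finger repressor best known in lymphocytes, was higher in the mutant with LPS and not with PBS. The wild type LPS libraries had 20.6, 22.2 and 23.3 normalized counts, and the mutant LPS mean was 65.2. That mutant mean splits into reads in 2 ways, as 52.7, 61.1 and 81.9 or as 1.97, 18.3 and 175, and the table does not say which. With PBS the wild type libraries had 15.0 and 23.8 and the mutant ones 19.3 and 19.7. The log2 fold with LPS was 1.51, adjusted p 0.00575, and with PBS -0.02, adjusted p 1 from the authors' deposited table. Knockout lungs with LPS had 48.6, 60.2 and 75.8, all above the same wild type libraries, and their log2 fold was 1.41 (adjusted p 0.00781, from the authors' deposited table). Zbtb32 thus stood near 20 in all 3 genotypes with PBS and near 60 in both lines with LPS. Whether its LPS response differs from that of wild type was not tested here. Of 20 tested entries in a list of BTB zinc finger repressors, Zbtb32 alone was called, and 12 lay below 0. The list was built around Zbtb32, so nothing is read from that call.

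A pair of neighbours on chromosome 18 rose together. Eif4ebp3, a 4E-BP that binds the cap-binding factor eIF4E, lies on the plus strand from 36664060 to 36665917. Sra1, the steroid receptor RNA activator gene, lies on the minus strand from 36666681 to 36670815. No source used here says that counting used strand, and reads of these close genes may not be fully separated. Eif4ebp3 had 90.0, 118 and 120 normalized counts in the wild type LPS libraries and an authors' mean of 232 in mutant with LPS, a log2 fold of 1.06 (adjusted p 0.0364, from the authors' deposited table). With PBS it had 72.3 and 136 in wild type and 184 and 230 in mutant, so every mutant PBS library was above both wild type ones, although the adjusted p was 1 there (the authors' deposited table). Sra1 had authors' means of 287 and 533 with LPS, a log2 fold of 0.88 (adjusted p 0.0227, from the authors' deposited table). Its PBS libraries had 156 and 208 in wild type and 277 and 291 in mutant, again without overlap. With PBS, 70 of 162 resolved entries without the mark (43.2%) separated too, so nothing is read from either separation. In knockout lung with LPS the authors' means were 232 for Eif4ebp3 and 482 for Sra1, with an adjusted p of 0.0178 and 0.0591 against wild type in the authors' deposited table. Of the 21 tested entries within 500 kb of Eif4ebp3, Sra1 alone was called. Ankhd1, which lies upstream and can be read through into Eif4ebp3, had authors' means of 1080 and 1230, and Apbb3, next to Sra1, had 113 and 147. Of 18 tested genes of the 4E-BP and cap-binding group, 7 lay above 0 and only Eif4ebp3 was called. The group was built around Eif4ebp3, so nothing is read from that call. Eif4ebp1 had authors' means of 357 and 319 and Eif4ebp2 233 and 196.

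Tmem181b-ps, a transcribed pseudogene of the Tmem181 family on chromosome 17 (6438524 to 6467022, minus strand), fell in the mutant. Its authors' means were 235 in wild type and 102 in mutant with LPS, and the PBS libraries had 254 and 335 in wild type and 164 and 177 in mutant. The mutant was lower in both PBS libraries too. Separation with PBS, in one direction or the other, also occurred in 70 of 162 resolved entries without the mark (43.2%). The wild type LPS mean splits into reads in 3 ways, as 204, 239 and 262, as 68.2, 83.2 and 554 or as 22.0, 132 and 552, so whether its libraries all lay above the mutant mean is not known. Its log2 fold was -1.19 with LPS, adjusted p 1.3e-05, and -0.78 with PBS, adjusted p 0.904 from the authors' deposited table. Knockout libraries with LPS had 93.9, 95.7 and 100.1, close to the mutant mean, and their log2 fold was -1.27 (adjusted p 2.09e-06, from the authors' deposited table). Of 18 neighbours within 500 kb, 14 lay below 0 with a median of -0.20. The parent gene Tmem181a had authors' means of 461 and 303 with an adjusted p of 0.172, and Dynlt1b, a dynein light chain gene next to Tmem181b-ps, 220 and 129 (adjusted p 0.722, from the authors' deposited table). Members of both families are near-identical copies, so reads could be split between them.

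Ide, the insulin-degrading enzyme on chromosome 19 (37268743 to 37337852, minus strand), fell in the mutant with LPS, and the knockout with LPS stood at the wild type level. With LPS its authors' means were 895 in wild type, 477 in mutant and 890 in knockout. With PBS the libraries had 766 and 828 in wild type and 503 and 548 in mutant. They did not overlap, as in 70 of 162 resolved entries without the mark (43.2%). The log2 fold was -0.90 with LPS, adjusted p 0.0154, and -0.59 with PBS, adjusted p 1, both from the authors' deposited table. Under LPS the knockout exceeded the mutant by 0.89, adjusted p 0.00673 from the authors' deposited table. The copy number of a segment that holds Ide is known to vary among C57BL/6J mice. Fgfbp3, the gene described with it in that segment, had authors' means of 23.1 and 19.5 with LPS and 69 and 49.3 with PBS. Of the 8 neighbours within 500 kb of Ide, 6 lay below 0 and none was called, among them the kinesin gene Kif11 with 119 and 79.9 and Btaf1 with 799 and 792. In a list of 22 genes of insulin action and degradation, Ide alone was called. The list was built around Ide, so nothing is read from that call. Igfbp3, which binds insulin-like growth factors, had authors' means of 1360 and 3010 (adjusted p 0.194, from the authors' deposited table).

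One of the entries named Slc25a37, for the mitochondrial iron importer mitoferrin 1 on chromosome 14, fell to a few counts in the mutant. It had 30.3, 31.4 and 40.4 normalized counts in the wild type LPS libraries and 2.29, 2.44 and 4.93 in the mutant ones. With PBS it had 4.62 and 7.94 in wild type and 0 and 3.01 in mutant. The LPS log2 fold was -2.97 (adjusted p 1.3e-05, from the authors' deposited table). Knockout libraries with LPS had 49.9, 54.2 and 68.1, all above wild type, and knockout and mutant differed by 3.70 (adjusted p 7e-10, from the authors' deposited table). The main Slc25a37 entry, with authors' means of 1230 and 1170, did not share this difference: its log2 fold was -0.07 (adjusted p 0.997, from the authors' deposited table). The table does not state which transcripts the 2 entries hold. Both entries named Entpd4, a nearby gene of a Golgi nucleotidase, lay below 0, with authors' means of 494 and 372 in one and 99.2 and 61.4 in the other.

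**Figure D3:**
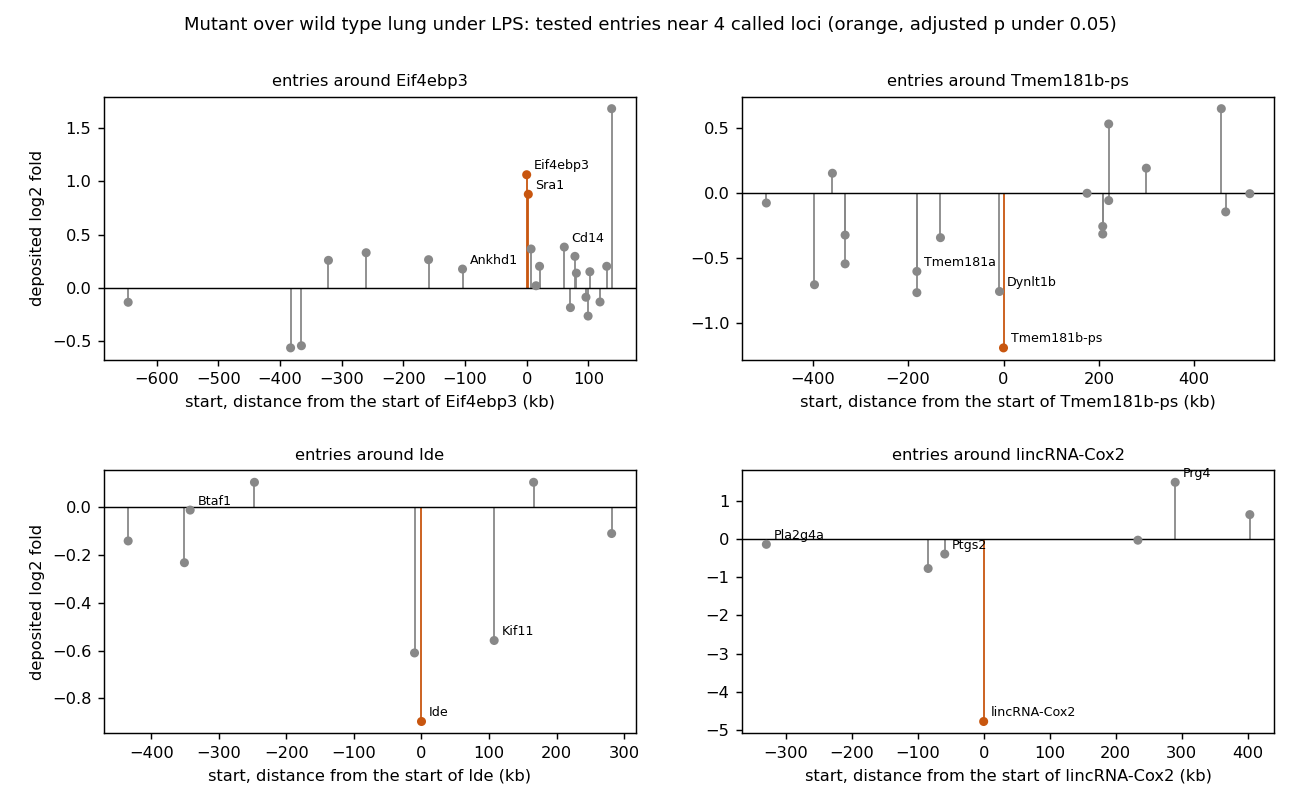
Deposited log2 folds, mutant over wild type lung under LPS, of tested entries whose gene lies within 500 kb of 4 called genes, against the distance in kb between the lower coordinates of the 2 genes. Orange marks an adjusted p under 0.05. Sra1 is called beside Eif4ebp3, most entries around Tmem181b-ps lie below 0, and Ide and lincRNA-Cox2 are the called entries in their windows.

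Mid1, a microtubule-associated ubiquitin ligase, rose most among the called genes. It lies at the end of the X chromosome (169685199 to 170005736, plus strand), where the gene reaches into the pseudoautosomal region in C57BL/6 mice. Its larger entry had authors' means of 407 in wild type, 2019 in mutant and 840 in knockout with LPS, and the mutant was 4.96-fold above wild type. The log2 fold was 2.19, adjusted p 2.41e-05 from the authors' deposited table. With PBS the wild type libraries had 135 and 185 and the mutant ones 153 and 615, so 1 mutant library was high and the groups overlapped. A second, small Mid1 entry had 1.53, 2.94 and 3.67 in the wild type LPS libraries and 13.8, 31.8 and 36.5 in the mutant ones, a log2 fold of 2.77 (adjusted p 0.0364, from the authors' deposited table). Erdr1, the next gene towards the chromosome end, had an authors' mean of 198 in wild type with LPS, 463 in mutant and 768 in knockout. Its adjusted p was 0.931 for the mutant and 0.0208 for the knockout in the authors' deposited table. The partners of Mid1 were flat by comparison: its paralogue Mid2 had authors' means of 330 and 315, and the phosphatase subunit Ppp2ca, which Mid1 targets, 2350 and 2480. Arhgap6 and Hccs, on the other side of Mid1, had 350 and 363 and 201 and 185. In spleen with LPS, mutant against wild type called Mid1 and no other entry, 1 of 18337 (0.00545%).

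Zfp69, a KRAB zinc finger gene on chromosome 4 (120930137 to 120951699, minus strand), fell in the mutant, with 1 library carrying most of the wild type level. The wild type LPS libraries had 18.4, 66.6 and 320 normalized counts, from 15, 68 and 417 reads, and the mutant ones 8.56, 14.8 and 17.2. The lowest wild type library was thus only just above the highest mutant one. Its log2 fold was -2.79 (adjusted p 0.00755, from the authors' deposited table). Without the library at 320 the wild type mean was 42.5, and the log2 ratio of the means, with 1 added to each, moved from -3.23 to -1.58. With PBS the libraries overlapped, at 30.0 and 61.2 in wild type and 44.4 and 54.2 in mutant, and the knockout libraries with LPS had 27.8, 28.9 and 53.8. None of the 10 neighbours of Zfp69 within 500 kb was called, with Exo5 at 51 and 48.3 and Smap2 at 682 and 901. The level of Zfp69 is known to vary between mouse strains through a retroviral insertion in the gene.

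The last 2 called entries have no position. AK217941, named by a transcript accession, had 21.5, 23.3 and 27.6 in the wild type LPS libraries and 52.7, 57.2 and 72.1 in the mutant ones, a log2 fold of 1.27 (adjusted p 0.0177, from the authors' deposited table). With PBS it had 54.7 and 56.6 in wild type and 74.8 and 89.8 in mutant, so wild type with LPS was the low group. The other is named abParts, a composite of antibody gene segments whose reads cannot be assigned to single genes, and several entries share this name. The called abParts entry had authors' means of 765 in wild type, 1550 in mutant and 2439 in knockout with LPS. It was the only entry of the name called in this contrast, so it does not stand for antibody RNA as a whole. Its log2 fold in the mutant was 1.00 (adjusted p 0.0237, from the authors' deposited table). The PBS libraries had 978 and 1245 in wild type and 1568 and 1672 in mutant.

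The 4 entries between 0.05 and 0.1 were Npy, Msra, Itgbl1 and AK033180. Npy, a neuropeptide, had 2.30, 3.92 and 6.12 in the wild type LPS libraries and 19.7, 24.4 and 29.8 in the mutant ones, and it was at 0 in both PBS groups. Itgbl1, an integrin beta-like matrix protein, had 58.3, 83.2 and 84.5 against 20.6, 35.5 and 37.9. AK033180 had 52.6, 62.1 and 85.2 against 13.8, 19.6 and 28.7. Msra, which repairs oxidized methionine, had authors' means of 248 and 362.

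Where both LPS groups could be resolved, the mutant and wild type libraries did not overlap in 5 of 5 called entries. The same held for 8 of 8 that carry the mark and for 6 of 28 other resolved entries (21.4%). Called and marked entries were chosen by a test on these same libraries, so their separation adds no support. Zbtb32 and Tmem181b-ps, with more than 1 way to split a mean, are not among them. These 28, and the 162 used for PBS below, come from the few entries whose means carry 6 decimals. They are therefore not a sample of all genes. With PBS the libraries of the 12 called entries separated in 8, against 70 of 162 other resolved entries (43.2%). The folds of 10 of the 12 had the same sign with PBS and with LPS, Zbtb32 and Zfp69 being the exceptions. Only 1 of the 12 was called with PBS. No such share over all tested entries is given, so nothing is read from this count.

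Of 911 tested entries on 55 gene lists, 7 were called (0.768%, against 0.0715% of all tested entries), and all 7 have been described. Several lists were built around called genes, so nothing is read from this share. The other listed entries did not pass the test. Medians were above 0 in 30 lists and below 0 in 25, and 38 lay within 0.2 of 0. With the groups set to equal sums, 19 medians were above 0 and 36 below. Lists are given here by their counts beside the 52.0% of all tested entries that lay above 0 in the mutant with LPS. No such share is given for PBS or for the knockout. List counts there are therefore description only, without a value over all entries to set them against. Genes of a list vary together, and in whole tissue a lower level can mean fewer cells of a type or less RNA per cell, which cannot be told apart.

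**Figure D4:**
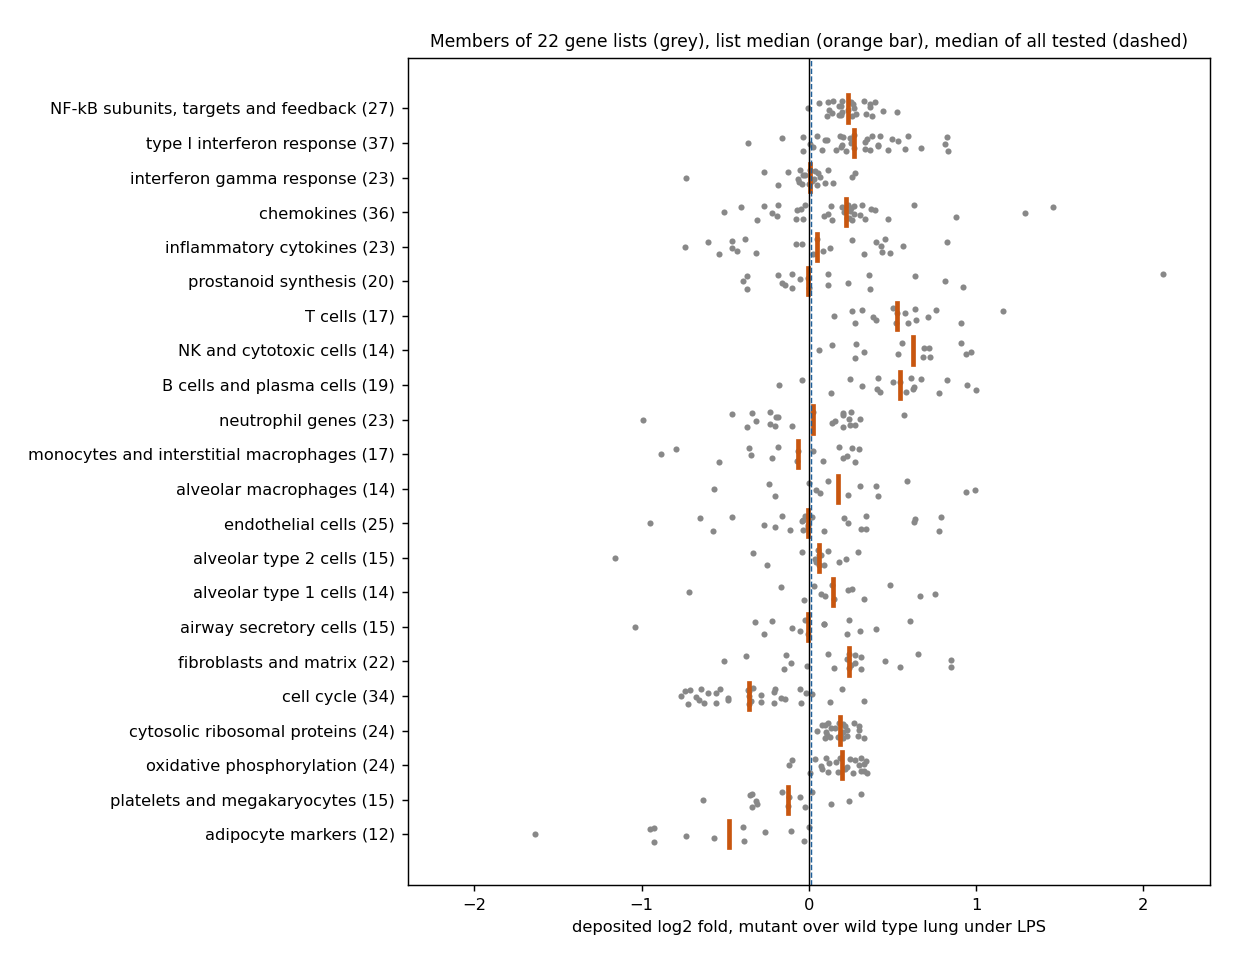
Deposited log2 folds, mutant over wild type lung under LPS, of the tested members of 22 gene lists (grey points, number of entries in brackets), the list medians (orange bars) and the median of all tested entries (dashed line, 0.01). T, NK and B cell lists lie to the right with medians of 0.52, 0.62 and 0.55, and cell cycle and adipocyte lists to the left with -0.36 and -0.48.

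Lymphocyte genes lay higher in mutant lung. All 17 tested T cell genes and all 14 of NK and cytotoxic cells were above 0, with median log2 folds of 0.52 and 0.62, as were 17 of 19 of B and plasma cells with 0.55. Their summed authors' means went from 942 to 1394 for T cells and from 2333 to 4026 for NK cells. The B and plasma cell sum moved little, from 7864 to 8207, and the most abundant gene of this list was Xbp1, a secretory factor that other cells express too, with authors' means of 4590 and 4050. Nkg7, a granule membrane protein, had authors' means of 86.0 and 172 with the smallest adjusted p of its list, 0.477, in the authors' deposited table. Granzyme B (Gzmb) had 973 and 1880, granzyme A (Gzma) 498 and 841, the T cell kinase Lck 108 and 165, and the interleukin 7 receptor Il7r 235 and 369. The B cell scaffold Bank1 had 30.2 and 63.7, the immunoglobulin joining chain Igj 95.5 and 188, and the low-affinity IgE receptor Fcer2a 97.2 and 184. These lists lay above 0 with PBS as well, in 16 of 17 T cell, 14 of 14 NK cell and 16 of 19 B cell genes, with medians of 0.40, 0.82 and 0.34. After setting the groups to equal sums, 17 of 17, 13 of 14 and 17 of 19 stayed above 0 with LPS. Knockout against wild type with LPS shares the wild type libraries. There 15 of 17 T cell, 12 of 14 NK cell and 16 of 19 B cell genes lay above 0. The medians there were 0.22, 0.39 and 0.81. Whether these shifts are particular to the mutant was not tested.

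Genes that LPS induces through NF-kB and interferon lay mostly above 0, and none was called. Of 27 genes of the NF-kB system, its targets and feedback, 26 lay above 0 with a median of 0.24. With PBS 6 of the 27 did, with a median of -0.24. In knockout against wild type with LPS 21 of the 27 did, with a median of 0.225. Icam1, an endothelial adhesion molecule, had authors' means of 15400 and 20500, the inhibitor Nfkbie 521 and 711, and Tnip3 275 and 403. Of 37 type I interferon response genes, 33 lay above 0 with a median of 0.27. In knockout against wild type with LPS 24 of the 37 did, with a median of 0.07. The antiviral genes Mx1 and Mx2 had authors' means of 2830 and 5190 and of 1730 and 3160, and Rsad2 (viperin) had 19300 and 35400. Their log2 folds of 0.82, 0.83 and 0.83 were near or beyond the upper end of the central 95% of all folds. With PBS the interferon list lay the other way, with 0 of 37 above 0 and a median of -0.78. Rsad2, for instance, had authors' means of 459 and 250 at rest. The difference between the 2 conditions was not tested.

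Other immune lists were mixed. Of 36 chemokine entries, 24 lay above 0 with a median of 0.22. With PBS 11 of 36 did, and in knockout against wild type with LPS 29 of 36. Among those above 0, Ccl20, which attracts Ccr6-positive cells, had authors' means of 154 and 521. The neutrophil attractant Cxcl5 had 233 and 498, and Cxcl3, another, had 259 and 441. Of 23 inflammatory cytokines, 13 lay above 0 and 10 below. Tumour necrosis factor (Tnf) had authors' means of 428 and 253, while the growth factor Csf2 had 343 and 631 and the alarmin Il33 1550 and 2340. Interferon gamma targets had 12 of 23 above 0, and 5 of 23 with equal sums, and Ciita, the regulator of MHC class II, had 429 and 252. Of 16 genes of the LPS receptor complex and its adaptors, 9 lay above 0, with Cd14 at 5620 and 7400 and Ly96 (MD-2) at 126 and 199. Neutrophil genes had 12 of 23 above 0 and a median of 0.03. Monocyte and interstitial macrophage genes had 8 of 17, with the chemokine receptor Ccr2 at 551 and 285. Of 14 alveolar macrophage genes, 10 lay above 0, with the scavenger receptor Marco at 360 and 749.

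Cell cycle genes lay lower in the mutant, with 30 of 34 below 0 and a median of -0.36. Cyclin B1 (Ccnb1) had authors' means of 90.5 and 51.8, cyclin A2 (Ccna2) 184 and 109, and cyclin B2 (Ccnb2) 67.8 and 40.4. Ribosomal proteins and oxidative phosphorylation lay a little higher, with 24 of 24 and 22 of 24 above 0 and medians of 0.19 and 0.20. With PBS these lay the other way, with 0 of 24 and 5 of 24 above 0 and medians of -0.22 and -0.09. Setting the groups to equal sums left 23 and 19 of these above 0, and 3 of 34 cell cycle genes. In knockout against wild type with LPS, 24 of 24 and 21 of 24 lay above 0, with medians of 0.37 and 0.20. Of the cell cycle genes, 22 of 34 lay above 0 there.

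The lists of lung cells ranged from below 0 to a median of 0.39 in mesothelium, where 7 of 8 genes lay above 0. Other medians were 0.06 in 15 genes of alveolar type 2 cells, 0.14 in 14 of type 1 cells, 0.24 in 22 of fibroblasts and matrix, -0.01 in 25 of endothelial cells and -0.13 in 15 of platelets. Of the type 2 genes 11 of 15 lay above 0, and 5 of 15 under equal sums, where the median was -0.02. Etv5, a type 2 cell transcription factor and the lowest of its list, had authors' means of 575 and 249 (adjusted p 0.204, from the authors' deposited table). The surfactant gene Sftpd of the same list had 9900 and 12200. Elastin (Eln) had 384 and 759, tenascin C (Tnc) 355 and 707, and Krt19, high in mesothelium, 604 and 1280. The endothelial genes pointed both ways, with Sox18 at 64.4 and 28.7 and Gpihbp1, which anchors lipoprotein lipase, at 243 and 428.

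Markers of tissues that can come along with a dissected lung were measured as well, and none was called. All 12 adipocyte markers lay below 0 with a median of -0.48, with adiponectin (Adipoq) at 52.1 and 21.3, and their summed authors' means were 6453 in wild type and 6112 in mutant. Of 15 cardiac entries, 13 lay below 0, with summed means of 2416 and 2061. Hepatocyte markers summed to 945 and 1544, and pancreatic markers, with Prss2 at 4.34 and 2.26, to 67.8 and 82.7. With PBS the pancreatic sums were 1220 in wild type and 75.3 in mutant, and the hepatocyte sums 958 and 323. Adipocyte and cardiac sums with PBS went the other way, at 3932 and 4574 and at 2546 and 3383. The part of these tissues in the called genes was not tested.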

How the data were processed

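Per the submitters' processing notes, STAR 2.5.3a, Bowtie2, SAMtools, bedtools and DESeq2 were used with mm10; their order and settings are not given in the sources used here. Per the file headers, the lung table deposited by the authors gives group means (a normalized signal, counts over size factors), log2 fold changes, adjusted p-values (treated as a score) and marks of calls. Folds are pulled towards 0. The authors' deposited adjusted p was used at under 0.05 with no test added, since there are no library columns; planned library fits and replicate omission over all entries were not run. Unadjusted p-values are not used here.

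Of 19476 lung lines 6 were broken and left out, 25 symbols turned into dates stayed unnamed, and 527 entries share a symbol. Positions came from GENCODE M21 and RefSeq synonyms (93.5%). Ratios of means used a pseudocount of 1, and 2-fold counts a mean of at least 50.

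Means with 6 decimals were written as whole reads times 1 step per library (tolerance 6e-07). A mean was used where 1 solution existed: 67 of 101 tried for wild type LPS and 35 of 95 for mutant LPS. On simulated data drawn from the wild type LPS means of 19470 entries, 77 of 77 single solutions were right, and for mutant LPS 53 of 53. Depths assume that a library's normalized total equals its group's.

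The members and gene lists were chosen with earlier results of these data known. The naming rule took lincRNA-Cox2, Ptgs2, called and marked entries, the 10 highest and 10 lowest ratios, the called and the 3 farthest members of each list, sex-linked genes and entries within 500 kb of a called gene. Only some of the list members and neighbours it took are printed, and these, like other named genes (lung markers, partners and paralogues), were chosen after their values were seen. Python 3.11.15, pandas 2.3.3 and numpy 2.4.6 were used.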

Additional observations from a re-analysis of the deposited data

Results flagged for a closer look

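For 2 called entries the 2 lines differed from each other under the authors' own test of knockout against mutant with LPS. The Slc25a37 entry that fell in the mutant stood 3.70 (log2) higher in knockout than in mutant, adjusted p 7e-10, and Ide stood 0.89 higher, adjusted p 0.00673, in the authors' deposited table. All other called entries with a value had an adjusted p of at least 0.187 there, lincRNA-Cox2 having none. Xist was 23.2 in knockout and 4510 in mutant with LPS, so sex-linked RNA and line cannot be told apart in this test.

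In spleen, a tissue outside the comparison, Mid1 was again called in mutant against wild type with LPS. Its authors' means were 207 in wild type and 2185 in mutant, and the log2 fold was 2.99 (adjusted p 8.45e-06, from the authors' deposited table). With PBS its means were 58.1 and 464, which was not called (adjusted p 0.254, from the authors' deposited table). Xist was 31.3 and 4670 in these spleen groups with LPS, so sex-linked RNA and genotype cannot be told apart there either. With PBS both spleen genotypes carried both kinds of transcript, with Xist at 2470 and 4040 and Ddx3y at 198 and 227 in its larger entry.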

How the results depend on the processing

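The count of 12 calls became 16 at an adjusted p up to 0.1, 12 with a mean of at least 10, 10 without X and Y entries and 8 among symbols that occur once. The count of entries at least 2-fold apart was 109 of 11776, and 82 to 113 under other pseudocounts, scalings or the deposited fold. For the 16 marked entries the log2 ratio kept its sign in 80 of 80 values under those settings, and 37 of these moved by more than the spread between libraries or had no spread to compare. Leaving out single libraries, possible for 8 entries, reversed none; Zfp69 ran from -3.74 to -1.58. List medians changed sign in 2 of 53 lists with a mean of at least 50, 1 of 55 by ratio of means, 2 of 55 with the overall median subtracted and 1 of 53 without X and Y entries. With the groups set to equal sums, an alternative chosen after seeing the data, 11 of 55 turned from above to below 0, and 19 in place of 30 were above 0. The Y-linked list moved most, by 5.27, by ratio of means. DESeq2 and edgeR fits and leave-one-out calls need library columns and were not run. No paired analysis was possible because the table's columns carry no replicate numbers and the results come from no test of single libraries. With 3 libraries against 3 at the depths given above, an entry that was not called is not shown to be equal.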

Other observations

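Entries far apart by group means but not called included airway and secretory genes. Clca3, a goblet cell product, had authors' means of 7.78 in wild type and 64.4 in mutant with LPS, Slc26a4, the anion exchanger pendrin, 601 and 1790, and Pigr, which carries IgA across epithelium, 2300 and 4760. Bpifa1, a secreted airway defence protein, went the other way with 1370 and 312. Aplnr, the apelin receptor, had 49.1 and 178, against 752 and 923 with PBS, and Nkain1 had 16.5 and 68.9, against 108 and 167 with PBS. The water channel gene Aqp3 had 20.7 and 66.7, Mycn, a Myc family factor, 28.8 and 90.7, and Apol8 19.4 and 112, the last 2 with no adjusted p in the table. Nrn1, which encodes neuritin, had 83.8 and 22.6 with LPS and 231 and 116 with PBS, and Fank1 68.9 and 21.4 with LPS and 68.0 and 24.9 with PBS. The lowest adjusted p among the genes of this paragraph that have one was 0.113 in the authors' deposited table.

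In spleen with LPS several called genes lay on the same side of wild type as in lung, at other levels, and none but Mid1 was called. Ide had authors' means of 301 and 183, Tmem181b-ps 37.6 and 17.6, the small Slc25a37 entry 23.9 and 6.56, Zfp69 39.8 and 12.5, Sra1 107 and 174, and Eif4ebp3 102 and 149. Zbtb32 had 138 and 137. No label ties a spleen to a lung.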
